A study of Bos taurus with 18 samples.

Results

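A total of 292 circRNAs had several m6A peaks listed for them in unstimulated bovine mammary epithelial cells. The median false discovery rate of their peaks was 24.5%, 44.97% and 36.2% in control wells 1, 2 and 3. A circRNA was taken into this set when at least 1 of the 3 control wells listed 2 or more m6A peaks for it. The set made up 7.46% of the 3914 circRNAs identified in the series and 28.2% of the 1035 circRNAs that had any control peak. The other 743 circRNAs with a control peak never had more than 1 in a well and are called one-peak circRNAs here. The set was chosen by the measured peak numbers of the control wells, so these are given as a description without a test.

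The cells were MAC-T, an immortalized line of cow mammary epithelium, so all wells came from 1 line and not from separate cows. Each well received 200000 cells and was cultured for 12 h. Heat-inactivated *S. aureus* or heat-inactivated *E. coli* was then added at a multiplicity of infection of 10 bacteria per cell for 24 h, and the control group received no bacteria. Each group had 3 replicate wells, and each well gave an input library and an m6A immunoprecipitation (IP) library, 18 libraries in all. No source says that the wells were separate cultures, so every p-value measures only the spread between wells.

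CircRNAs are closed RNA loops made when a downstream splice site is joined back to an upstream one, and the read that crosses this back-splice junction identifies the circle. N6-methyladenosine (m6A) is a methyl mark placed on adenosines by a writer complex around METTL3 and bound by reader proteins of the YTH family. An m6A peak is a stretch in which the antibody-bound RNA was enriched over the input, and the tables give its position, its fold enrichment over input and the circRNA it was listed for. Mammary epithelial cells line the milk-producing alveoli and meet the bacteria of mastitis first.

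The input libraries were shallow for circRNAs, with 1529 to 2057 back-splice reads per control well, 909 to 962 per *E. coli* well and 361 to 402 per *S. aureus* well. Over all circRNAs the control wells listed 1138 to 1358 peaks, the *E. coli* wells 645 to 857 and the *S. aureus* wells 27 to 29. Of 22 epithelial marker genes 6 hosted a circRNA, among them DSP, and of 22 markers of other cell types none did (0 hosts). The number of reads behind a peak is unknown, so no counting interval can be given for a peak.

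The number of peaks per circRNA was mostly small. The largest number in any control well was 2 for 178 members, 3 for 64, 4 for 19 and 5 or more for 31. The threshold was met in control well 1 by 245 members, in well 2 by 202 and in well 3 by 231. In all 3 control wells it was met by 163 members (55.8%), in exactly 2 wells by 60 and in exactly 1 well by 69. At the edge of the set, 63 members had 2 peaks in 1 control well and fewer in the others, and 415 one-peak circRNAs had 1 peak in every control well. The first had a median span on the genome of 13472 bases and the second 2676 bases.

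The 10 circRNAs with the most control peaks had 10 different hosts. They were named for their control numbers, so lower numbers in the *E. coli* wells were partly fixed by the choice. The circRNA of AKAP9, a scaffold that anchors protein kinase A (chromosome 4, 9414889 to 9447186, exonic), had 8, 9 and 8 peaks in control wells 1, 2 and 3. In *E. coli* wells 1, 2 and 3 it had 5, 5 and 4, below every control well, and in the *S. aureus* wells it had 0. The circRNA of UPF2, a factor of nonsense-mediated mRNA decay (chromosome 13, 12306164 to 12391186, exonic), had 8, 7 and 7 control peaks and 3, 2 and 2 in the *E. coli* wells, again without overlap. A circRNA that overlaps MIR2297 in sense on chromosome 11 had 9, 8 and 8 control peaks and 3, 6 and 3 in the *E. coli* wells.

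In other members near the top the numbers of the *E. coli* and control wells met or overlapped. The circRNA of DST, which encodes the cytoskeletal linker dystonin, had 6, 5 and 6 control peaks and 5 in each *E. coli* well. That of ITSN1, an endocytic scaffold, had 6, 7 and 7 control peaks and 5, 6 and 4 with *E. coli*. The circRNA of SREK1, a splicing regulator, had 6 in each control well and 6, 6 and 4 with *E. coli*. The mean was lower with *E. coli* in all 3, by less than 2 peaks.

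The circRNA of MAP4K4, a kinase upstream of the JNK pathway (chromosome 11, 6589372 to 6616790, exonic), had 6, 6 and 5 control peaks and 3, 7 and 4 with *E. coli*, so that *E. coli* well 2 lay above and the other *E. coli* wells below all control wells. At the other extreme, the circRNA overlapping CCDC18 had 5, 6 and 8 control peaks and 1 in each *E. coli* well. The circRNA of SPECC1L, a cytoskeletal cross-linker, had 7, 8 and 5 control peaks and 3 in each *E. coli* well. That overlapping AFAP1L2, a signalling adaptor, had 6, 6 and 5 and then 2, 2 and 3.

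Among these 10 members only the *E. coli* and *S. aureus* wells could be compared by a test, since the control wells had been used for the choice. All 10 had more peaks in every *E. coli* well than in any *S. aureus* well, with a two-sided exact permutation p of 0.1 for each, which is the smallest value that 3 against 3 wells allow, and an adjusted value of 0.1 over the 10. No comparison of this size could therefore pass 0.05. The same order of wells was found for 35.7% of all 1035 circRNAs with a control peak and for 96.6% of the 386 circRNAs with a peak in all 3 *E. coli* wells. The mean difference ran from 1 peak for CCDC18 to 5 for ITSN1 and DST. SREK1 was the only 1 of the 10 with any *S. aureus* peak, 1 in each well.

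**Figure D1:**
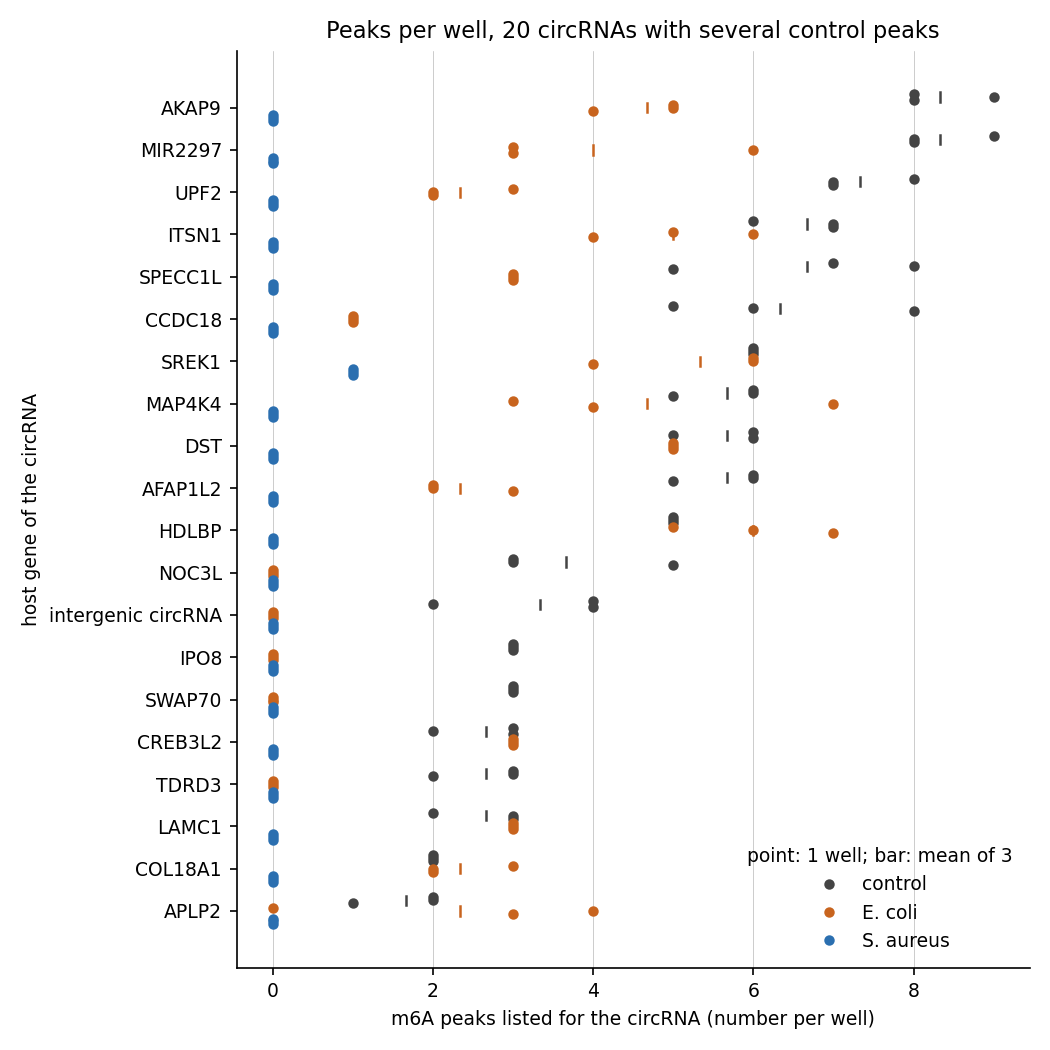
Number of m6A peaks per well (x axis) for 20 several-peak circRNAs named by host gene (y axis): the 10 with the most control peaks, 5 that lost all peaks in the *E. coli* wells and 5 with more peaks there; each point is 1 well and each bar the mean of 3. *S. aureus* wells lie at 0 for 19 of them and at 1 for SREK1; the APLP2 row is the circRNA that starts at position 36311503.

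The wells that had not chosen a circRNA were read separately. Of the circRNAs with 2 or more peaks in 1 control well, 72.7% to 88.1% had 2 or more in another control well, 38.8% to 58.4% in an *E. coli* well and 0% in an *S. aureus* well. Their mean peak number was 2.24 to 2.76 in the other control wells and 1.27 to 1.85 in the *E. coli* wells. The *E. coli* shares lay below the shares in other control wells for every choice. This was not particular to circRNAs with several peaks. Of those with 1 peak in the choosing well, 75.6% to 92.2% had a peak in another control well. In an *E. coli* well 43.0% to 63.9% of them had a peak, again lower for every choice.

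**Figure D2:**
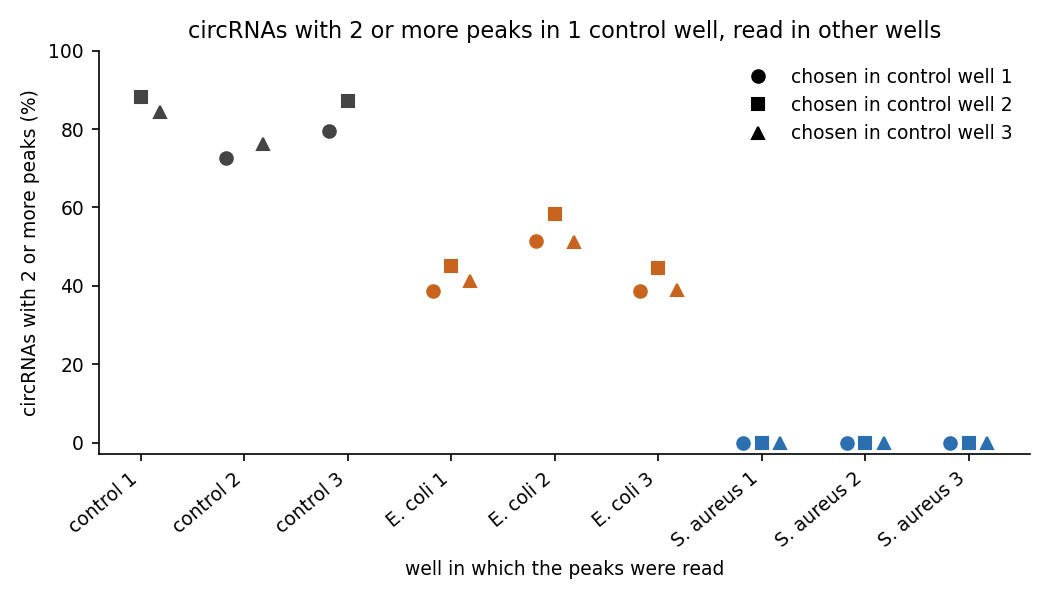
Share of circRNAs with 2 or more peaks (y axis, %) in each well (x axis) among the circRNAs chosen for 2 or more peaks in 1 control well; the marker shape gives the choosing well, which is not shown for itself. The shares are 72.7% to 88.1% in other control wells, 38.8% to 58.4% in *E. coli* wells and 0% in *S. aureus* wells.

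By class, 231 members (79.1%) were exonic, 55 (18.8%) sense overlapping, 4 antisense, 1 intronic and 1 intergenic. Among one-peak circRNAs 62.7% were exonic, 18.2% sense overlapping and 11.8% antisense, and among all circRNAs the shares were 68.0%, 12.5% and 8.89%. Antisense circles were 1.37% of the members. They came from the strand opposite WDR72, ANXA8L1, KHSRP and SETD2.

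Members were long circles. Their median predicted length was 1278 bases, with a range of 186 to 83780, against 768 for one-peak circRNAs and 568 for all circRNAs. Within the exonic class the medians were 988, 729.5 and 533 bases, and within the sense overlapping class, whose predicted length includes introns, 17940, 7335 and 6590. Only 15.4% of the members were under 500 bases, against 34.5% of the one-peak circRNAs.

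**Figure D3:**
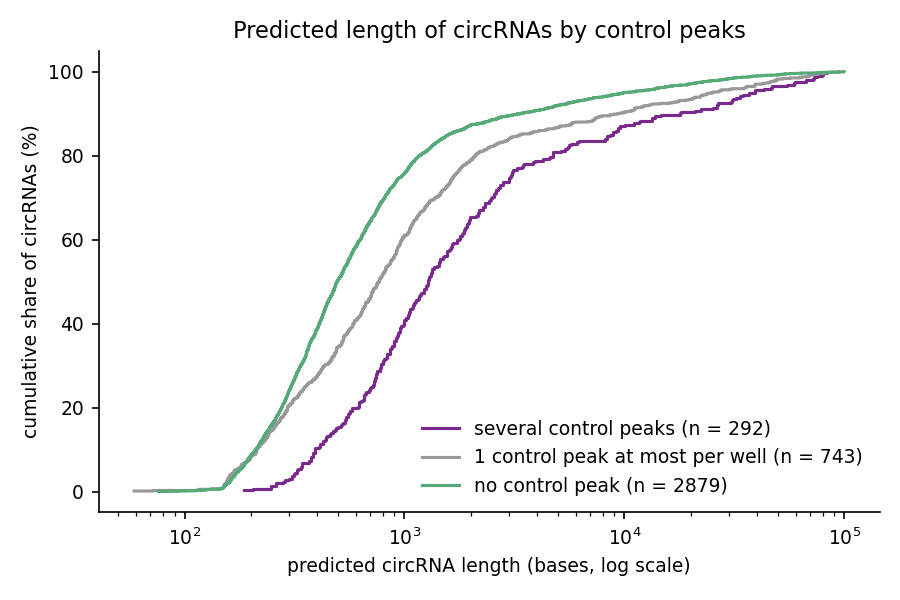
Cumulative share of circRNAs (y axis, %) by predicted length (x axis, bases, log scale) for the 292 several-peak circRNAs, the 743 one-peak circRNAs and the 2879 circRNAs without a control peak. The medians are 1278, 768 and 494 bases.

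The genomic distance between the back-splice sites separated the sets further, with a median of 13638 bases for members and 4052 for one-peak circRNAs. Among circRNAs with a control peak, those spanning under 5000 bases had several peaks in 13.7% of 461, those from 5000 to under 20000 bases in 34.4% of 320 and those of 20000 or more in 46.9% of 254. Within the set the relation was weak. Over the 292 members Spearman's rho of the mean control peak number was 0.17 with predicted length and 0.21 with span, and it was -0.055 with back-splice reads. The members share libraries and some share hosts, so no p is given.

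Neighbouring peaks of a member lay kilobases apart on the genome. These gaps count introns, which the predicted length of an exonic circle leaves out, so they are not distances along the circle. In 58 exonic members the control regions summed to the whole predicted length. The median gap was 3128 ± 46.6 bases (SD, n = 3 control wells), with quartiles of 1481 and 7244, over 387 gaps per well on average. Gaps under 1000 bases made up 12.7% and gaps over 10000 bases 18.0%. The shortest gaps were 2 bases in the circRNA overlapping OTULIN, a linear-ubiquitin deubiquitinase, in control well 2, and 15 bases in CCDC18 in control well 1. The longest was 59282 bases in CRK, which encodes an adaptor protein, in control well 2. In the *E. coli* wells the median gap was 3305 ± 518 bases (SD, n = 3), a difference within the spread between wells.

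As listed, the peaks were short. Their median length was 200.2 ± 6.53 bases (SD, n = 3 control wells), against 388 ± 26.4 on one-peak circRNAs, and 59.7% against 36.5% were under 250 bases. In exonic circles the medians were 164 ± 1.80 and 360 ± 24.0 bases. In sense overlapping circles the order was opposite, with 902 ± 33.1 bases on members and 721.5 ± 21.3 on one-peak circRNAs. Fold enrichment differed little between the sets, with medians in control wells 1, 2 and 3 of 24.4, 23.9 and 16.7 on members and 24.97, 25.7 and 17.6 on one-peak circRNAs, slightly lower on members in each well.

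**Figure D4:**
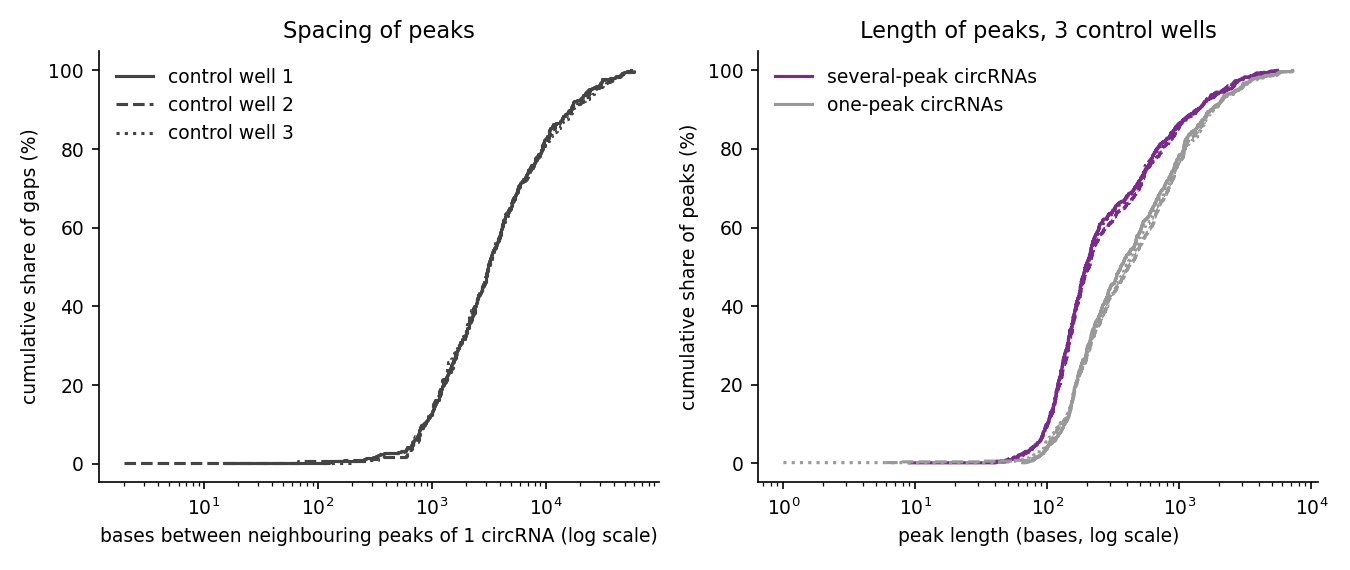
Left, cumulative share of gaps (y axis, %) by the bases between neighbouring peaks of 1 circRNA (x axis, log scale), with 1 line per control well; right, cumulative share of peaks (y axis, %) by peak length (x axis, bases, log scale) for several-peak and one-peak circRNAs, with 1 line per control well. The median gap is 3128 bases on the genome, introns included. The median peak length is 200.2 bases on several-peak circRNAs and 388 on one-peak circRNAs.

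The listed peak ends recurred to the base in most regions called in all 3 control wells. Peaks of 1 circRNA that shared at least 1 base between control wells were merged, which gave 844 regions on members, 2 per member at the median and 10 at most. Of these, 508 (60.2%) were called in all 3 control wells, and 398 of the 508 (78.3%) had the same first and last base in each. Of 230 regions called in all control and *E. coli* wells, 177 (76.96%) had identical ends in all 6. One-peak circRNAs gave 83.8% and 84.2% for the same measures.

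In exonic circles the regions never added up to more than the predicted spliced length (0 of 231 members). They covered 66.6% of it at the median, with quartiles of 43.4% and 99.3%, and in 58 members (25.1%) they added up to exactly the whole predicted length. Of these 58 circles 38 had 2 regions, 17 had 3 and 3 had 4. In one-peak exonic circRNAs 90 of 466 (19.3%) were covered whole. Exon borders were not available here, so whether the listed ends, lengths and numbers of peaks follow them was not tested.

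YAP1, the transcriptional coactivator of the Hippo pathway, gave an example of a wholly covered circle (chromosome 15, 6525185 to 6569679). Its 3 regions of 182, 114 and 116 bases sum to the predicted 412 bases over a span of 44495, and all 3 were called in every control and every *E. coli* well. Fold enrichment of the 182-base region was 20.7, 20.5 and 15.0 in the control wells and 19.4, 30.5 and 25.1 in the *E. coli* wells. That of the 114-base region was 19.99, 34.5 and 13.8 and then 44.9, 30.6 and 48.2. The ranges of the 2 groups overlapped for both regions. Its back-splice junction was read once, in control well 2.

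**Figure D5:**
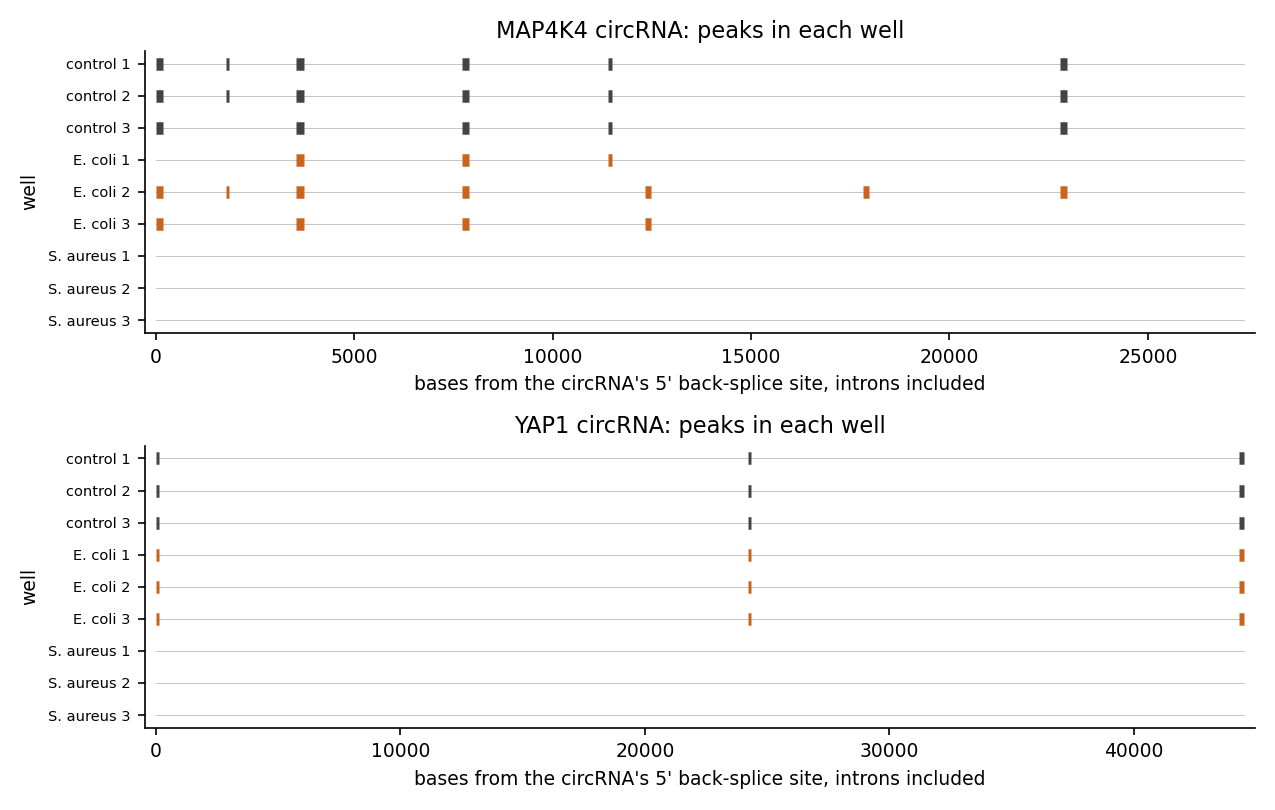
Peaks in each of the 9 wells (y axis) along the circRNAs of MAP4K4 and YAP1 (x axis, bases from the 5' back-splice site, introns included, to scale); a bar is a peak, and a line without bars is a well with no peak. MAP4K4 has 5 or 6 peaks in control wells and 3, 7 and 4 in *E. coli* wells, and YAP1 has 3 in each of these 6 wells.

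On the genomic span, introns included, regions of members were centred more often near either end than in the middle. With the span divided into 3 equal parts from the 5' end, 39.1% of the 844 regions were centred in the first part, 22.5% in the middle and 38.4% in the last. For one-peak circRNAs the shares were 32.2%, 40.1% and 27.7%. In the control wells 44.8% ± 0.950 (SD, n = 3) of the members' peaks began or ended exactly on a back-splice site, against 82.1% ± 1.16 on one-peak circRNAs. A peak ran from end to end of the span in 2 of 2017 control listings on members and in 606 of 1710 on one-peak circRNAs. Such a peak is centred in the middle part, so the difference from one-peak circRNAs was partly fixed by these listings.

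After *E. coli*, 249 of the 292 members (85.3%) kept a peak in at least 1 well and 169 in all 3, while 43 had none. Over all circRNAs with a control peak the share was 66.4%, and for one-peak circRNAs it was 59.0%. The difference between the sets did not carry over to single regions. Of the 844 control regions of members 501 (59.4%) overlapped an *E. coli* peak, against 435 of 758 (57.4%) on one-peak circRNAs and 58.4% over all 1602 regions.

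Per well, the members held 719, 616 and 682 peaks in control wells 1, 2 and 3 and 349, 445 and 332 in the *E. coli* wells. The *E. coli* wells all lay below the control wells. The members' part of all listed peaks was 54.2% ± 1.23 (SD, n = 3 control wells) and 52.3% ± 1.03 (SD, n = 3 *E. coli* wells), so the members' peaks were fewer by about the same factor as all peaks. Members' back-splice reads were lower too, with 134, 128 and 152 in the control wells and 75, 58 and 64 with *E. coli*. As a share of the library they were 8.76%, 7.47% and 7.39% in the control wells and 8.16%, 6.03% and 7.04% with *E. coli*, which overlap. The listed peaks also differed in stringency between the groups, since the median false discovery rate of the members' peaks was 24.5%, 44.97% and 36.2% in the control wells and 3.8%, 2.89% and 3.87% in the *E. coli* wells. Its part in the numbers of kept peaks was not tested. Fewer cells and less circRNA per cell cannot be told apart here, and the part of read depth in the peak numbers was not tested.

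Several peaks on 1 circle were kept less widely. In the *E. coli* wells 150 members (51.4%) had 2 or more peaks in at least 1 well, against 15.3% of all circRNAs with a control peak, and 64 had them in all 3 wells. On average over wells, 252 members had fewer peaks than in the control group, 33 as many and 7 more. Members were chosen for their control peak numbers, so a lower number with *E. coli* was partly fixed by the choice. Of the members 91 kept all their control regions in at least 1 *E. coli* well, 157 some and 44 none. In 92 members 1 of several regions was kept, and in 71 of these (77.2%) it was the region with the highest control fold enrichment, where these members had 2.28 regions on average.

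Regions that recurred between control wells were kept more often. Of the 508 regions called in all 3 control wells 403 (79.3%) overlapped an *E. coli* peak, and of the 189 called in 1 control well 39 did (20.6%). The kept regions had a median control fold enrichment of 24.5 and a median length of 213 bases, against 16.01 and 157 for those not kept. In UPF2 the 2 regions kept in all 3 *E. coli* wells were the 380-base region at the 5' back-splice site, with a fold enrichment of 188, 142 and 199 in the control wells, and the next 1 of 780 bases. The 4 middle and late regions from 12366115 to 12389785 had values of 8.61 to 54.9 in the control wells and no peak in any *E. coli* well.

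The 5 members that had 2 or more peaks in every control well, no *E. coli* peak and the most control peaks were an intergenic circle and circles of NOC3L, IPO8, SWAP70 and TDRD3. NOC3L, a factor of ribosome biogenesis, had 3, 3 and 5 control peaks. The intergenic circRNA (chromosome 21, 14082500 to 14121657) had 4, 2 and 4. IPO8, a nuclear import receptor, and SWAP70, a signalling protein of the actin cytoskeleton, had 3 in each control well, and TDRD3, a Tudor domain protein, had 3, 3 and 2. The 3 regions of SWAP70, of 167, 108 and 182 bases, sum to its whole predicted length of 457 bases. Each of these 5 circles had 1 to 4 back-splice reads over the 9 input libraries.

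The 5 members with more peaks in the *E. coli* wells than in the control wells on average, by number of *E. coli* peaks, were led by HDLBP, which encodes the RNA-binding protein vigilin. It had 5 peaks in each control well and 5, 6 and 7 in the *E. coli* wells. CREB3L2, a membrane-anchored transcription factor, had 3, 2 and 3 and then 3 in each, and LAMC1, a laminin chain, had 2, 3 and 3 and then 3 in each. COL18A1, a basement membrane collagen, had 2 in each control well and 3, 2 and 2 with *E. coli*. An APLP2 circle (chromosome 29, 36311503 to 36317251) had 2, 2 and 1 and then 0, 4 and 3. The groups overlapped or touched in all 5.

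New regions were few. Of 521 merged *E. coli* regions on members 19, on 15 members, overlapped no control peak, and none of the 19 was called in all 3 *E. coli* wells. Only 2 were called in 2 wells, 1 in MAP4K4 (6601693 to 6601854) and 1 in APLP2 (36315585 to 36315684).

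With *S. aureus* few peaks of the set were listed. The members held 4 peaks in each *S. aureus* well, on 4 members (1.37%, against 1.84% of all circRNAs with a control peak), and no member had 2. Of the 844 control regions 3 (0.355%, against 1.12% of all regions) overlapped an *S. aureus* peak. The members' back-splice reads were 26, 31 and 31 in the *S. aureus* wells, and their share of the library, 7.69% ± 0.908 (SD, n = 3), differed from that of the control wells (7.39% to 8.76%) by less than the spread between wells.

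The 4 regions with an *S. aureus* peak were each called in all 3 wells. In SREK1 the region at chromosome 20, 13451687 to 13452532, had a fold enrichment of 292, 164 and 278. It lies within the strongest control region of that circle, whose values were 292, 303 and 178 in the control wells and 211, 290 and 359 with *E. coli*, so the 3 groups overlapped. In DSP, which encodes the desmosomal protein desmoplakin, the region at the end of the circle (chromosome 23, 47830853 to 47831350) had 53.8, 65.1 and 63.5 with *S. aureus*, 73.6, 60.5 and 42.2 in the control group and 56.5, 66.8 and 46.4 with *E. coli*. It was also the strongest control region of its circle.

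The other 2 were an antisense circle and an APLP2 circle. Opposite ANXA8L1, which belongs to the annexin family, the region at chromosome 28, 41954072 to 41954955, had 34.5 ± 2.19 (SD, n = 3). In APLP2, which encodes an amyloid precursor-like protein, the region at chromosome 29, 36304037 to 36304233, had 24.8, 24.5 and 27.4. No control or *E. coli* peak overlapped it, while the neighbouring region from 36304816 to 36305036 was called in all control and *E. coli* wells. None of the 4 circles had a back-splice read in an *S. aureus* well.

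The 292 circles came from 264 host genes, of which 22 had more than 1 member and 5 had 3 (AKAP9, EIF4G3, ERC1, SMC6 and ZC3H13). A pair of members overlapped on the same strand in 10 cases. A peak is listed for 1 circRNA in a well, so the number for an overlapping circle depends on the authors' assignment. Over all hosts with a control peak 264 of 859 (30.7%) hosted a several-peak circle.

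The gene lists were chosen with earlier results of these data known, so their shares are given as a description only. Of the chromatin regulators with a control peak 19 of 34 (55.9%) hosted a several-peak circle. All 22 of these circles kept a peak with *E. coli*, as did 85.3% of all members and all of the 9 circles of adhesion and cytoskeleton hosts and the 7 of inflammatory and kinase signalling hosts. BAZ2B, a bromodomain protein, had 5 peaks in each control well and 4, 3 and 2 with *E. coli*. SMARCC1, a core subunit of the SWI/SNF remodelling complex, had 5, 4 and 4 and then 4, 4 and 5. BRD7, another bromodomain protein of that complex family, had 4, 5 and 4 and then 2, 3 and 2. PHF3 had 4 in each control well and 2, 0 and 0 with *E. coli*.

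Of hosts in RNA processing and the m6A machinery 8 of 19 (42.1%) had a several-peak circle. ZC3H13, a component of the m6A writer complex, hosted 3, with control peaks of 3, 2 and 3 in the first, 2 in each well in the second and 2, 0 and 2 in the third. YTHDC1, the nuclear m6A reader, hosted 1, with 2, 1 and 2 control peaks and 1 in each *E. coli* well. EIF4G3, a translation initiation factor, and TNRC6B, a component of miRNA silencing complexes, had means of 3 and 3.67 control peaks in their leading circles.

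In the other lists the shares lay near 30.7%. They were 8 of 28 for adhesion and cytoskeleton (28.6%), 7 of 26 for inflammatory and kinase signalling (26.9%) and 3 of 11 for ubiquitin genes (27.3%). SMAD1, a signal transducer of bone morphogenetic proteins, had 3 in each control well and 2 in each *E. coli* well. HUWE1, a ubiquitin ligase on chromosome X, had 2, 2 and 1 and then 1, 1 and 0.

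Back-splice reads of the members were sparse. Over the 9 input libraries the median was 2 reads per member, 131 members (44.9%) had 1 read in all, and 83.9% were read in 1 library only. In a control well 64.7 ± 9.29 members (SD, n = 3) had a read, 22.1% of the set against 22.3% of all circRNAs. Of the members with a peak in a control well 21.8% ± 3.09 (SD, n = 3) also had a back-splice read in the input of that well. With *E. coli* this share was 13.3% ± 2.97 and with *S. aureus* 0 of 4 in every well. A circle with the most peaks was not a circle with many reads, since AKAP9 and UPF2 had 1 read each.

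The most-read member was the circRNA of ARID1A, a subunit of SWI/SNF complexes (chromosome 2, 126448967 to 126452456), with 16, 9 and 3 reads in the control wells, 2, 0 and 2 with *E. coli* and 0, 2 and 0 with *S. aureus*. As a share of the library's back-splice reads this was 1.05%, 0.525% and 0.146% in the control wells, 0.218%, 0% and 0.220% with *E. coli* and 0%, 0.554% and 0% with *S. aureus*, so the groups overlapped. Its 2 peaks were nevertheless called in all control and *E. coli* wells, with a fold enrichment of 234, 229 and 151 in the control wells and 171, 323 and 185 with *E. coli* for the 453-base region. The next were NSD2, a histone methyltransferase, with 5, 0 and 10 control reads and 1, 0 and 2 with *E. coli*, and DEK, a chromatin protein, with 2, 10 and 3 and then 0, 1 and 0. Neither had a read with *S. aureus*.

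Junction reads were tested with edgeR's quasi-likelihood test on the 79 circRNAs that reached 2 reads in 3 or more input libraries, of which 6 were members. After Benjamini-Hochberg adjustment over the 79, 0 circRNAs (0%) differed in any of the 3 comparisons, members included. The median log2 fold change of the 79 was -1.88 for *S. aureus* against control and -0.366 for *E. coli* against control. For *E. coli* against *S. aureus* it was 1.19. For the 6 members the medians were -1.87, -0.870 and 1.49, so unadjusted calls came from a tested set that was shifted as a whole. Without adjustment, at a fold change of 2 and p of 0.05, 2 members were lower with *S. aureus* (NSD2 and DEK, adjusted p = 0.210 by edgeR for both), against 13 of the 79 circRNAs (16.5%). Their fitted fold changes have no lower limit because all *S. aureus* wells were at 0. Without *S. aureus* well 1 or well 3 neither reached 0.05 by edgeR (unadjusted p of 0.057 and 0.059 for DEK, 0.055 and 0.062 for NSD2). DEK passed the read filter only through its control wells, with 2, 10 and 3 reads. A lower value for DEK after treatment was therefore partly fixed by the filter. NSD2 passed it only through control wells 1 and 3 and *E. coli* well 3. Its lower value with *S. aureus* was therefore partly fixed by the filter too.

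With *E. coli*, ARID1A was lower by edgeR without adjustment (log2 fold change -2.51, standard error 1.26, adjusted p = 0.494), and 6 of the 79 (7.59%) were. TAF3, a subunit of the transcription factor TFIID, had 0 reads in each control well and 4, 2 and 0 with *E. coli* and was the single circRNA higher (1.27%). It passed the read filter only through *E. coli* and *S. aureus* wells, so a higher value than in the control group was partly fixed by the filter. ARID1A no longer passed by edgeR without control well 1 or without any 1 *E. coli* well (unadjusted p of 0.0701 to 0.263), and TAF3 did not without any 1 control well (0.0645 to 0.117). Between *E. coli* and *S. aureus* 0 members passed even without adjustment, against 10 higher (12.7%) and 2 lower (2.53%) of the 79. WAPL, a cohesin release factor, and TNFRSF21, a death receptor, were the other 2 members tested, with log2 fold changes of 1.82 and 0.05 for *E. coli* against control by edgeR and adjusted p-values of 0.832 and 0.988.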

How the data were processed

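Total RNA of 9 wells was enriched for circRNA and sequenced as input and m6A IP libraries. The authors used cutadapt 1.9.3 for trimming, STAR 2.5.1b for alignment to the bosTau9 genome and DCC for identification of circRNAs. They deposited back-splice junction counts of 3914 circRNAs for the 9 input libraries, with edgeR 3.16.5 used for their normalized log2 values, which were not used here. For each IP library they deposited a peak table with, for every peak, its score, its false discovery rate as a percent and a ratio, the fold enrichment over input. Peak names point to MACS, and its version and use of strand are not given in the sources used here. The lowest false discovery rate was 10% to 18.2% in control wells and 0% to 1.95% in *E. coli* wells, so peaks were used as listed and not filtered on it. Host genes and classes are those of the authors' tables.

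Members and gene lists were chosen with earlier results of these data known. Positions are on bosTau9, counted from 1, and chromosome names were obtained by matching host symbols to the gene table of ARS-UCD2.0. A control region was kept when a peak on the same strand shared at least 1 base with it, whichever circRNA that peak was listed for. Merging was done within a circRNA. Named members were, by mean peak number, the 10 with most control peaks, the 5 with most that lost all peaks with *E. coli*, the 5 with more peaks with *E. coli*, those with an *S. aureus* peak, the 5 with most reads, those tested for reads, and up to 4 hosts per gene list; circles named for a class, a gap or a host with several members follow from those counts. Some members that the rule names are not reported here. Reads were tested with edgeR 4.0.16 (R 4.3.3, TMM, all 3 groups in 1 fit, common biological coefficient of variation 0.911). The script was checked on simulated counts that had less spread between wells than these data and no read filter. How the test performs at the spread of these data was not tested. DESeq2 1.42.0 was an alternative. Each junction library held 361 to 2057 reads, which limits tests of single circRNAs to large changes. The planned search for a sequence motif in peaks was not run, since no genome was used here.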

Additional observations from a re-analysis of the deposited data

How the results depend on the processing

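The number of members was 223 with 2 or more peaks required in at least 2 control wells, 163 in all 3, 114 with 3 or more peaks required and 127 with peaks above the median control fold enrichment only. It was 292 with peaks under 100 bases apart joined or shared regions given to the shortest circle, and 257 to 281 without 1 control well. With members limited to those chosen in all 3 control wells, 149 had an *E. coli* peak. The other settings for *E. coli* and *S. aureus* peaks and for gaps stayed within 1.5 times or 1 SD. Without 1 *E. coli* well 223 to 247 members kept a peak, 123 to 144 kept 2 or more and 412 to 483 regions were kept. The *S. aureus* number was 4 without any 1 well, and the median gap was 3101 to 3142 bases without 1 control well.

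For reads, the number of circRNAs past the unadjusted threshold for *S. aureus* against control (13) was 2 without TMM, 22 without a filter and 5 by DESeq2. For *E. coli* against control (7) it was 2 by DESeq2, and for *E. coli* against *S. aureus* (12) it was 6 without TMM, 3 with only these groups in the fit and 5 by DESeq2. Without 1 well the 3 numbers ran from 3 to 12, 2 to 7 and 4 to 8. With the well number as a replicate block they were 9, 2 and 4. Same-numbered wells correlated at -0.091 to 0.102, so the numbers were not taken to pair the wells. In the fit of *E. coli* and *S. aureus* alone 1 circRNA, not a member, passed the adjusted threshold, and 0 did in every other setting run for the 3 comparisons.

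None of the members' uncalled differences that changed sign passed a threshold. Log2 fold changes were 0.61 for WAPL (*S. aureus* against control) and -0.28 for ARID1A (*E. coli* against *S. aureus*) without TMM. For TNFRSF21 (*E. coli* against control) they were -0.065 without a filter, -0.42 with the replicate block and -0.072 by DESeq2. Without 1 well these ran from -2.75 to 0.047 for WAPL, from -0.60 to 3.56 for ARID1A, from -0.46 to 0.71 for TNFRSF21, and from -0.033 to 1.61 for TAF3 (*E. coli* against *S. aureus*). The search for a motif in peaks was not run.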

Other observations

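Several peaks were also found on circRNAs outside the set. In the *E. coli* wells 11 circRNAs had 2 or more peaks in a well without ever having 2 in a control well, and 8 of these had 1 control peak in some well. In the *S. aureus* wells 2 circRNAs did so. The exonic circRNA of TNS4, which encodes a tensin of focal adhesions (chromosome 19, 40704871 to 40716576), had 0 peaks in each control well, 2, 3 and 0 in *E. coli* wells 1, 2 and 3 and 2, 3 and 3 in the *S. aureus* wells. It was the only circRNA with 2 or more peaks in all 3 *S. aureus* wells, and it had 1 back-splice read, in *E. coli* well 3. An antisense circRNA at FN1, the fibronectin gene (chromosome 2, 103361756 to 103403647), had 0 control peaks, 0, 1 and 1 with *E. coli* and 2, 2 and 1 with *S. aureus*. The exonic circRNA of TPM1, a tropomyosin gene of the actin cytoskeleton (chromosome 10, 47002579 to 47021567), had 0 control peaks and 0, 2 and 2 with *E. coli*. These circles were named after their values were seen.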
